A study of Homo sapiens with 4 samples.

Results

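The genes examined were 9 noncoding RNA genes, RNU4-1, RNU4-2, RNU5A-1, RNU5B-1, RNU11, RNU12, RN7SK, RN7SL1 and RN7SL2, out of 62663 genes that GENCODE release 44 annotates on chromosomes 1 to 22, X and Y of GRCh38. They were listed by name, with earlier results of these data known, and separated by the polymerase that transcribes them. The 6 spliceosomal small nuclear RNA (snRNA) genes are transcribed by RNA polymerase II (Pol II), and RN7SK, RN7SL1 and RN7SL2 by RNA polymerase III (Pol III). Pol II chromatin immunoprecipitation sequencing (ChIP-seq) was performed in SK-OV-3, an established human ovarian cancer cell line, to ask whether RRN3, which brings RNA polymerase I to ribosomal RNA genes, influences where transcription by Pol II ends. One group carried the hairpin shRRN3, which silences RRN3, and the control group carried shLacZ, a hairpin named for a bacterial gene. RRN3-silenced cells were made with a lentiviral vector that drives the hairpin from the H1 promoter and carries puromycin resistance. The vector of shLacZ is not given in the sources used here, nor is which of the designed RRN3 hairpins the ChIP-seq cells carried. Each hairpin had 1 Pol II library and 1 input library, and each Pol II library is represented by 1 list of peaks. No library was replicated, so the replicate error of a difference between hairpins is unknown, and values are described without a p-value.

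The spliceosome removes introns from messenger RNA precursors and is built around snRNAs. U4 (RNU4-1, RNU4-2) is carried into it in a complex with U6 and U5, and U5 (RNU5A-1, RNU5B-1) aligns the exons to be joined. U11 and U12 (RNU11, RNU12) belong to the minor spliceosome, which removes a rare class of introns. The 7SK RNA (RN7SK) holds the elongation kinase P-TEFb in an inactive complex, and 7SL (RN7SL1, RN7SL2) is the RNA scaffold of the signal recognition particle (SRP), which brings ribosomes to the endoplasmic reticulum. In human snRNA promoters a distal octamer binds activators and a proximal sequence element recruits the complex SNAPc, and a TATA box beside the proximal element turns such a promoter over to Pol III. The 7SK gene is of this latter kind, whereas 7SL genes rely mainly on elements inside and just before the gene. Transcripts of Pol II snRNA genes are cut at their end by the Integrator complex, and Pol III stops at a short run of T.

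To show these letters, 4 of the promoters are given first. The sequences are the 90 bases before the annotated start, read from the GRCh38 genome on the gene's strand, and capitals mark matches to the proximal element core ACCNTNAC or to the TATA words TATAAA and TATATA, which overlap in RN7SK.
RNU11, chr1:28648510-28648599, plus strand: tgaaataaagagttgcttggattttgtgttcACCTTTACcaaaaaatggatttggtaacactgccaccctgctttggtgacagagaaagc
RNU5B-1, chr15:65304587-65304676, plus strand: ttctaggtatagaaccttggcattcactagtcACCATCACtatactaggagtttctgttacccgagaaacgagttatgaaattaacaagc
RN7SK, chr6:52995531-52995620, plus strand: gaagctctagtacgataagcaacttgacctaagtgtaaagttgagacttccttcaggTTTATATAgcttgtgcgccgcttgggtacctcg
RN7SL1, chr14:49586490-49586579, plus strand: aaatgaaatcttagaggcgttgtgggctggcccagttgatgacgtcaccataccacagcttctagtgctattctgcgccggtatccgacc

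The core began 59 bases before the start in RNU11 and 58 bases before it in RNU5B-1, and a match on the opposite strand began 51 bases before the start of RNU4-2. No other member held these letters within 250 bases before its start, and 6.80% of all annotated genes did, on either strand. The octamer ATGCAAAT lay on the opposite strand between 203 and 229 bases before the start of RNU4-2, RNU5A-1, RNU5B-1 and RNU11, whereas 2.07% of all genes had it in that window. A TATA word began 33 bases before the start of RN7SK. The other member with a TATA word was RNU5A-1, at 98 bases and farther, and 19.1% of all genes had one. A match describes the letters and not a bound factor, and the absence of these exact letters says nothing about SNAPc.

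The ends of the genes were compared next. The sequences below hold the last 20 bases of a gene and the 20 bases after it, with the run of T that touches the last base in capitals.
RNU5B-1, chr15:65304773-65304812, plus strand: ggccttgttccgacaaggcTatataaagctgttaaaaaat
RN7SK, chr6:52995929-52995968, plus strand: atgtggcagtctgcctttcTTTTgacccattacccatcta
RN7SL1, chr14:49586859-49586898, plus strand: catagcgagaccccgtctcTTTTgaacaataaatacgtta
A run of 4 T touched the last base of RN7SK, RN7SL1 and RN7SL2. The run was 3 T in RNU11, 1 T in RNU5A-1 and RNU5B-1, and 0 in RNU4-1, RNU4-2 and RNU12. Of all annotated genes, 4.44% ended in a run of at least 4 T.

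Members come in near-identical pairs, so reads of one copy can be placed on another. The U4 genes are shown whole, with the 4 bases at which they differ in capitals.
RNU4-2, chr12:120291763-120291903, minus strand: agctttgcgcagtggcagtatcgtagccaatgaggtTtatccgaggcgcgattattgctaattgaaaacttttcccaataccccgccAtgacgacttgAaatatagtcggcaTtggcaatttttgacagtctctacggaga
RNU4-1, chr12:120293097-120293237, minus strand: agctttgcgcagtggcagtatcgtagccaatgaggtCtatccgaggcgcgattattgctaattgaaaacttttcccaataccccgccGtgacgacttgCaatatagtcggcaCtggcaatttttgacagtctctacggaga
The U4 genes were identical at 97.2% of their 141 aligned bases, RNU5A-1 and RNU5B-1 at 94.0% of 116, and RN7SL1 and RN7SL2 at 98.3% of 300. The 250 bases before the start were less alike, at 52.2%, 66.8% and 52.6% in these pairs. How the authors treated reads that map to several places is not given in the sources used here. As a measure from the genome alone, the share of 50-base stretches that occur once on chromosomes 1 to 22, X and Y was computed, a length that was not taken from the reads. Within the gene this share was 100% in RNU11 and RNU12, 98.9% in RNU4-2, 87.0% in RNU4-1 and 86.6% in both U5 genes. It was 22.9% in RN7SK, 15.6% in RN7SL1 and 13.1% in RN7SL2. Within 250 bases on either side of the gene it was 100% in 8 members and 92.8% in RN7SK.

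The lists held 3920 peaks in shLacZ and 14322 in shRRN3 on the primary chromosomes. A peak list has no read counts, so the depth is unknown. The score of a peak, taken as 10 times the −log10 of its p-value, ran from 50.03 to 3100 in shLacZ and from 50 to 3100 in shRRN3. It depends on depth, so peaks were ranked within their own list. Of markers of an ovarian epithelial line, PAX8 had a peak midpoint within 1 kb of its start in both lists, and KRT8 and KRT18, which share their peak, and EPCAM in shRRN3 alone. KRT7, MUC16, WT1, ERBB2 and MECOM had none in either list, nor had the markers of blood, vessel, fibroblast, liver and glial cells (0 of 5).

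All 6 Pol II snRNA genes had a Pol II peak over the gene in both libraries, and none of the 3 Pol III genes had one over the gene in either. Counting peaks in the gene or 2 kb around it, the Pol II class had 6 of 6 in shLacZ and 6 of 6 in shRRN3, and the Pol III class had 0 of 3 in shLacZ and 1 of 3 in shRRN3. By the same rule, 6.42% of all annotated genes had a peak in shLacZ (exact 95% interval 6.23% to 6.61%), 17.7% in shRRN3 (17.4% to 18.0%) and 5.67% in both lists. Among protein-coding genes, which are longer, the shares were 13.4% and 36.9%. Genes of the members' own annotation classes are short, and most are pseudogene copies. There the shares were 1.64% in shLacZ and 3.43% in shRRN3 for other genes of the class snRNA, and 1.22% and 4.03% for other genes of the class misc_RNA. A peak over the annotated gene itself was found at 5.20% of all genes in shLacZ and 15.0% in shRRN3. The intervals cover counting error over genes only. The members were chosen with earlier results of these data known, so these shares are a description and not a test.

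**Figure D1:**
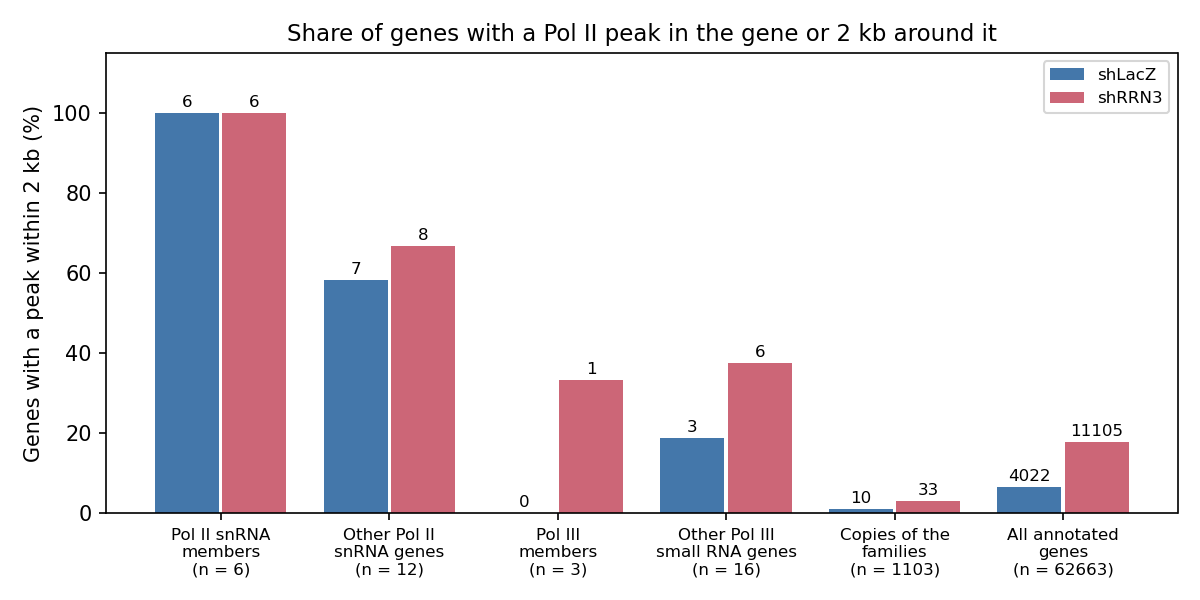
Percentage of genes with a peak in the gene or 2 kb around it (vertical axis) in shLacZ (blue) and shRRN3 (red), with the number of such genes above each bar and the number of genes in each set on the horizontal axis. All 6 Pol II members had a peak in both lists, against 0 and 1 of the 3 Pol III members and 6.42% and 17.7% of all genes. The members were chosen with earlier results of these data known.

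The U4 genes lie 1334 bp apart, start to start, in the same direction on chromosome 12, and each had a peak of its own. At RNU4-2 (120291763 to 120291903), the shLacZ peak was 747 bp wide with a score of 457 (120291416 to 120292162), which ranked 61 of 3920. The shRRN3 peak there was 1265 bp wide with a score of 1138 (120291071 to 120292335), which ranked 24 of 14322. Each of these was the best-ranked peak over a member in its list. At RNU4-1 (120293097 to 120293237), the shLacZ peak was 787 bp wide with a score of 384 and rank 78 (120292640 to 120293426). The shRRN3 peak was 974 bp wide with a score of 547 and rank 105 (120292599 to 120293572). Thus the order of the copies was the same in both lists, with RNU4-2 above RNU4-1. Because the genes are so close, each peak also lay within 2 kb of the other gene. No start of a protein-coding gene lay within 9 kb of the peak midpoints.

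The U5 genes lie on chromosome 15 in the same direction, with the start of PARP16 between them. At RNU5A-1 (65296051 to 65296166), shLacZ had a peak of 521 bp over the gene with a score of 159 and rank 323 (65295813 to 65296333). A second shLacZ peak of 235 bp and score 53.4 followed 10 bp further on (65296343 to 65296577), near the lowest score of the list. In shRRN3 a single peak of 687 bp had a score of 305 and rank 337 (65295765 to 65296451). These were the lowest-ranked peaks over a Pol II member in both lists. At RNU5B-1 (65304677 to 65304792), the shLacZ peak was 597 bp wide with a score of 262 and rank 144 (65304455 to 65305051). The shRRN3 peak was 1146 bp wide with a score of 918 and rank 39 (65304284 to 65305429). RNU5B-1 therefore ranked above RNU5A-1 in both lists.

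The minor spliceosome genes share their promoter regions with protein-coding genes that run the opposite way, so their peaks cannot be assigned to the snRNA gene by position alone. RNU11 (chromosome 1, 28648600 to 28648733) starts 309 bp from the start of TAF12, a subunit of the general factor TFIID. In shLacZ it had a peak of 355 bp, score 356 and rank 87 over the gene (28648477 to 28648831), and a second of 488 bp and score 134 began 10 bp further on (28648841 to 28649328). In shRRN3 a single peak of 1266 bp with a score of 800 and rank 47 (28648093 to 28649358) spanned both starts. RNU12 (chromosome 22, 42615244 to 42615393) starts 282 bp from the start of POLDIP3. On the opposite strand, CYB5R3 ends beside RNU12 and the protein-coding gene ENSG00000289517 spans it. The lncRNA genes ENSG00000270103 and ENSG00000270022 are annotated at the same starts as RNU11 and RNU12, in the same direction, and share their peaks. Its shLacZ peak was 614 bp wide with a score of 277 and rank 128 (42615210 to 42615823). The shRRN3 peak was 898 bp wide with a score of 594 and rank 92 (42615156 to 42616053). A second shRRN3 peak of 686 bp and score 83.1 (42617258 to 42617943) lay 1865 bp past the gene, within CYB5R3 and ENSG00000289517. With peaks near a protein-coding start left out, 4 of the 6 Pol II members still had a peak in shLacZ, and 5 in shRRN3, where RNU12 counted only through this second peak. By that rule 3.08% of all annotated genes had a peak in shLacZ and 9.89% in shRRN3.

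**Figure D2:**
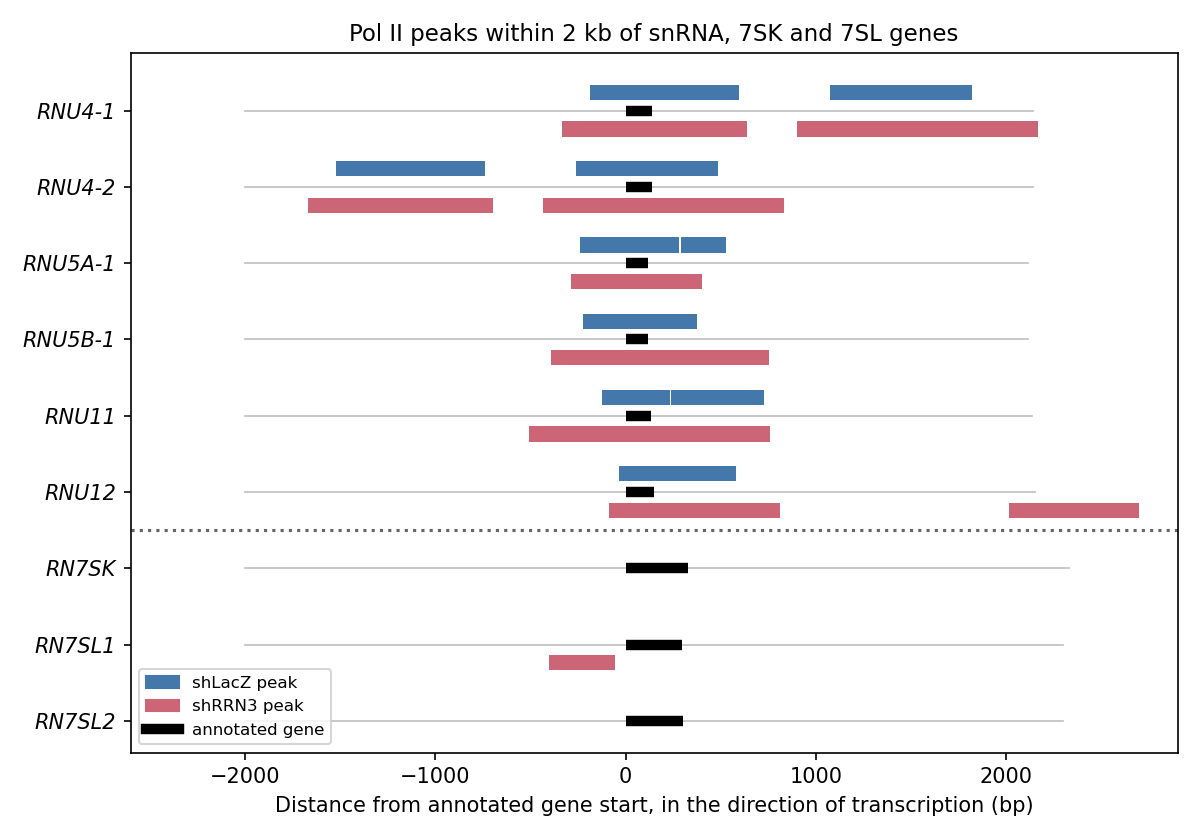
Peaks within 2 kb of each member (shLacZ blue, above the gene; shRRN3 red, below it), drawn to scale by distance in bp from the annotated gene start in the direction of transcription, with the gene in black and the searched window as a grey line. Each of the 6 genes above the dotted line (Pol II) has a peak over it in both lists, and the only peak below the line (Pol III) is the shRRN3 peak that ends 58 bp before RN7SL1; the peaks of the adjacent U4 genes appear in both of their rows.

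All 6 peaks over Pol II snRNA genes ranked high in their lists. Their scores ran from 159 to 457 in shLacZ, with a median of 316, while the median of the whole list was 65.6 and that of 1324 peaks at protein-coding starts was 69.98. In shRRN3 the scores ran from 305 to 1138, with a median of 697, while the list median was 74.7 and that of 4371 peaks at protein-coding starts was 86.6. The lowest of the 6 was reached by 8.24% of all shLacZ peaks and 2.35% of all shRRN3 peaks, and by 6.57% and 2.75% of the peaks at protein-coding starts. As a percentile of their own list, they stood between 91.79 and 98.47 in shLacZ and between 97.65 and 99.84 in shRRN3. A percentile rises when weak peaks lengthen a list, so percentiles of these lists are not comparable. By rank, 4 of the 6 stood higher in shRRN3. RNU4-1 (78 in shLacZ, 105 in shRRN3) and RNU5A-1 (323 and 337) stood lower.

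**Figure D3:**
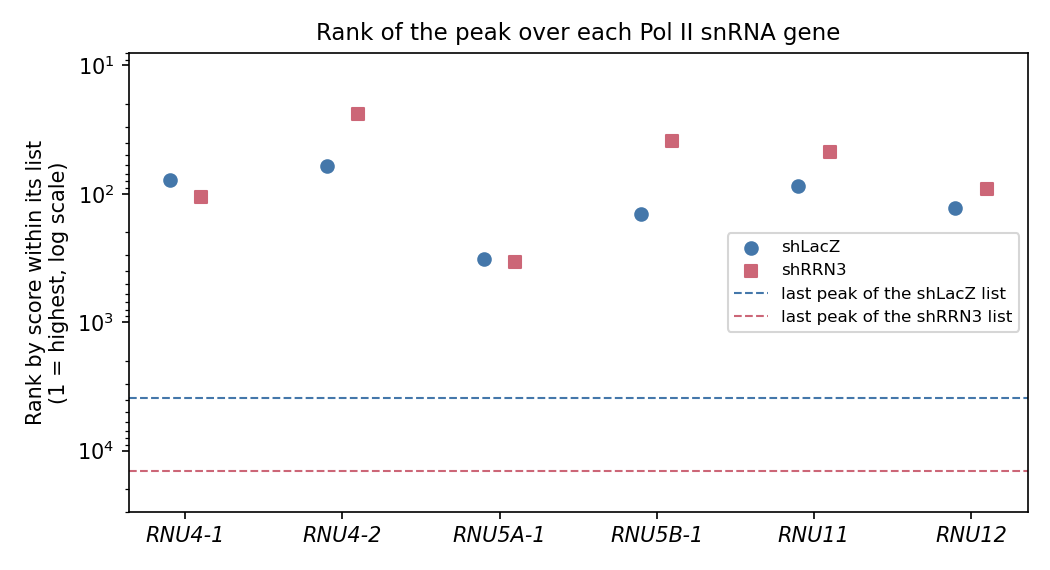
Rank by score, within its own list, of the peak over each Pol II snRNA gene (vertical axis, log scale, 1 is the highest), for shLacZ (blue circles) and shRRN3 (red squares), with dashed lines at the number of peaks in each list. Ranks run from 61 to 323 of 3920 in shLacZ and from 24 to 337 of 14322 in shRRN3.

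The extent of the peaks beyond the genes was examined next, because the study asked about the end of transcription. The genes are 116 to 150 bp long, so most of each peak lay outside its gene. Past the gene end, the shLacZ peaks reached 98 bp (RNU11), 167 bp (RNU5A-1), 259 bp (RNU5B-1), 347 bp (RNU4-2), 430 bp (RNU12) and 457 bp (RNU4-1). The shRRN3 peaks reached 625, 285, 637, 692, 660 and 498 bp past the same ends, in that order of genes. The shRRN3 peak reached further at all 6 genes, by 41 bp at RNU4-1 to 527 bp at RNU11, with a median of 287.5 bp. Before the start it also reached further at all 6, by 48 bp at RNU5A-1 to 384 bp at RNU11, with a median of 158.5 bp. Each shLacZ peak over a gene lay wholly inside its shRRN3 counterpart, whereas the second shLacZ peak at RNU5A-1 ran past the end of the shRRN3 peak.

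Wider shRRN3 peaks were seen throughout the lists. Of the shLacZ peaks, 2594 had a shRRN3 peak that overlapped them, and the highest-scoring such peak was wider in 87.9%, extended past both edges in 61.2% and had a higher score in 82.0%. At RNU11 and RNU5A-1 the shLacZ list also had adjoining peaks where shRRN3 had 1. When peaks up to 10 bp apart were joined, the shLacZ reach past the end became 595 bp at RNU11 and 411 bp at RNU5A-1. The shRRN3 peak, at 625 bp and 285 bp, then reached further past the end at 5 of 6 genes and fell short of shLacZ at RNU5A-1.

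**Figure D4:**
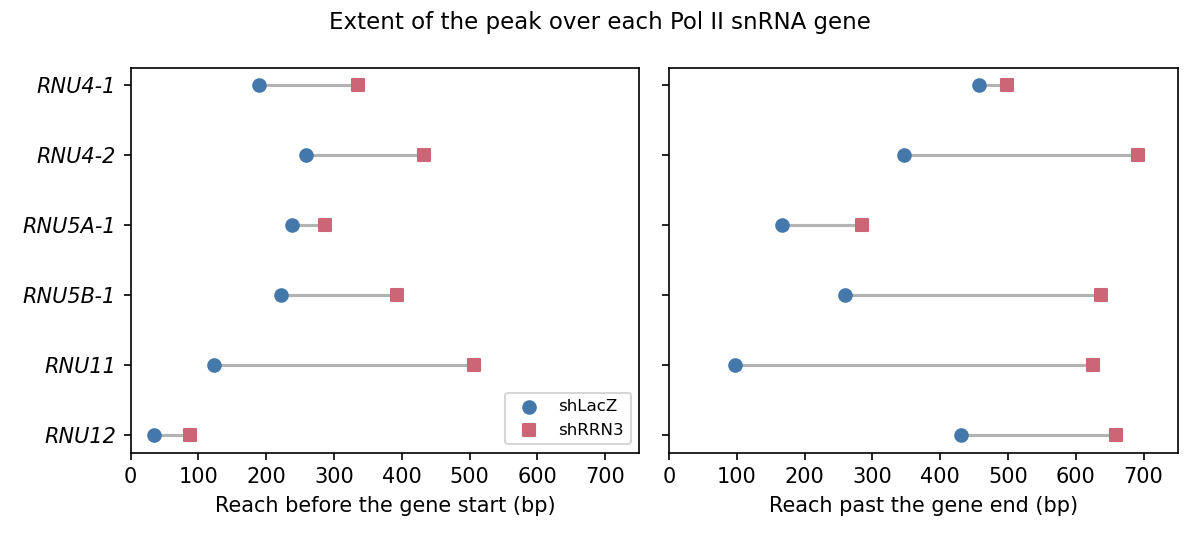
Distance in bp that the peak over each Pol II snRNA gene reached before the annotated gene start (left) and past the annotated gene end (right), in shLacZ (blue circles) and shRRN3 (red squares), without joining of adjacent peaks. The shRRN3 point lies to the right at all 6 genes on both sides, from 41 to 527 bp further past the end.

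The Pol III genes had 1 Pol II peak within 2 kb over both lists, and 3 genes are too few to set apart from the shares of all genes given above. RN7SK (chromosome 6, 52995621 to 52995948) had none within 2 kb in either list, and the nearest peak was 69327 bp away in shLacZ and 46181 bp away in shRRN3. The start of GSTA4, a glutathione transferase gene that runs the opposite way, lies 317 bp from that of RN7SK and thus had no peak either. RN7SL2 (chromosome 14, 49862550 to 49862849) had none, with the nearest peaks 168960 bp and 4928 bp away, and the lncRNA gene ENSG00000278002 starts 223 bp from it on the opposite strand. RN7SL1 (chromosome 14, 49586580 to 49586878) had none in shLacZ, where the nearest was 6411 bp away. In shRRN3 it had a peak of 347 bp with a score of 82.3 (49586176 to 49586522), which ranked 5988 of 14322. That peak ended 58 bp before the gene, inside the annotated span of RPS29, a ribosomal protein gene on the other strand. It was absent from the 3920 highest-scoring shRRN3 peaks. As given above, few 50-base stretches within these 3 genes occur once in the genome, while nearly all of those around them do. The part of read mapping in the missing peaks was not tested.

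Other genes of these RNA families were taken from lists by name. Of 12 other Pol II snRNA genes, 7 had a peak in shLacZ and 8 in shRRN3 (58.3% and 66.7%), and each of these peaks or one beside it overlapped the gene. RNU2-2P, a U2 gene named as a pseudogene, had the highest, with a score of 662 and rank 34 in shLacZ and 1580 and rank 12 in shRRN3. It lies at the start of WDR74, whose start is 450.5 bp and 379 bp from the midpoints of these peaks. RNU4ATAC, the U4 of the minor spliceosome, had scores of 298 in shLacZ and 751 in shRRN3. Of the further U5 genes, RNU5D-1 had 409 and 568, and RNU5E-1 had 317 and 692. RNU5F-1 had a score of 64.1 and rank 2097 in shLacZ, and a score of 471 and rank 136 in shRRN3.

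The U1 genes RNU1-1 and RNU1-2 had peaks in both lists. The highest of them at RNU1-1 overlapped the gene and scored 113 in shLacZ and 202 in shRRN3. At RNU1-2 the highest scored 107 and 167 but lay 362 bp and 350 bp outside the gene. The peaks over RNU1-2 itself scored 94.4 and 109.85. RNU7-1, which encodes the U7 RNA of histone messenger processing, had a peak in shRRN3 alone, of score 471 and rank 137. The midpoint of that peak lay 932.5 bp from the start of the protein-coding gene C12orf57. RNU1-3, RNU1-4, RNVU1-18 and RNU2-1 had none in either list. All but RNU7-1 among the 8 genes with a peak thus had the pattern of the Pol II members, a peak in both lists, and 2 libraries allow no finer measure of likeness.

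Of 17 other Pol III small RNA genes, RNY5 was not found under that name in the annotation, and 3 of the remaining 16 had a peak in shLacZ and 6 in shRRN3 (18.8% and 37.5%). In the 3920 highest-scoring shRRN3 peaks the number was 1, below that of shLacZ, and 7.52% of all annotated genes had a peak. The 3 with a peak within 2 kb in both lists were RPPH1, RMRP and VTRNA1-1. RPPH1, the RNA of ribonuclease P, scored 166 and 207, and its peak midpoints lay 218.5 bp and 156.5 bp from the start of PARP2. RMRP, the RNA of ribonuclease MRP, scored 83.3 and 75.6, with midpoints 13.5 bp and 820.5 bp from the start of CCDC107. The shRRN3 peak of RMRP lay 616 bp outside the gene, whereas the shLacZ peak overlapped it. The vault RNA gene VTRNA1-1 scored 90.2 and 69.1, and its nearest protein-coding start was over 12 kb away. VTRNA1-2 had a peak of score 52.9 in shRRN3 alone. The U6 genes RNU6-1 and RNU6-9 had shRRN3 peaks of 81.7 and 70.3 that ended 118 bp and 184 bp before the gene, and the midpoint of the latter lay 206 bp from the start of MED16. RNU6-2, RNU6-7, RNU6-8, RNU6ATAC, RN7SL3, RNY1, RNY3, RNY4, VTRNA1-3 and BCYRN1 had none in either list. None of these Pol III genes reached the score of the lowest-ranked Pol II member in shRRN3, and RPPH1 alone exceeded it in shLacZ.

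Annotated copies of the members' families, 1103 in all and mostly pseudogenes, rarely had a peak within 2 kb. The number was 10 in shLacZ (0.907%) and 33 in shRRN3 (2.99%), or 13 in the shortened shRRN3 list. A peak overlapped the copy itself at 2 in shLacZ and 7 in shRRN3. The 677 RN7SL copies had 5 and 20 with a peak within 2 kb, the 299 RN7SK copies 1 and 5, the 95 U4 copies 2 and 6, and the 26 U5 copies 2 and 2. RNU5E-4P lies beside RNU5E-1, whose peaks fall within 2 kb of it, and had a peak of its own that scored 115.38 in shLacZ and 372 in shRRN3. The peak over RNU5E-6P scored 65.8 in shLacZ and 618 in shRRN3. RN7SL525P, 145 in shLacZ, and RNU4-34P, 277 in shRRN3, had their peaks near the starts of TRIM28 and TAOK1. RN7SKP114 scored 109 in shLacZ, with a peak 518 bp outside the copy whose midpoint lay 592.5 bp from the start of UBAP2.

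The protein-coding partners of these RNAs were listed by name too, and a peak midpoint within 1 kb of the start was counted. Over all protein-coding genes, 7.56% had one in shLacZ (exact 95% interval 7.20% to 7.93%) and 23.7% in shRRN3 (23.1% to 24.3%). Of 45 partner genes, 10 had one in shLacZ and 30 in shRRN3, or 22.2% and 66.7%, and 8 had one in both. In the shRRN3 list shortened to its 3920 highest-scoring peaks, 14 had one, and the share of all protein-coding genes there was not counted. Of 8 genes for SNAPc and its activators, 1 had a start peak in shLacZ and 5 in shRRN3. SNAPC5 scored 110 and 227, and the activator ZNF143 scored 238 in shRRN3 alone, as SNAPC1 did with 125. Of 14 Integrator genes, 3 and 8 had one. INTS13 scored highest, at 178 and 258, followed by INTS5 (81.7) and INTS6 (53.6) in shLacZ, and by INTS7 (146) and INTS10 (87.95) in shRRN3.

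Of 7 genes for the 7SK particle and P-TEFb, 2 and 6 had a start peak. HEXIM1, the inhibitor that 7SK brings to P-TEFb, had the highest partner peak in both lists, with 255.64 in shLacZ and 569 in shRRN3. MEPCE, which caps 7SK, scored 86.8 in shLacZ and 51.9 in shRRN3. HEXIM2 (198) and CCNT1 (109), a cyclin of P-TEFb, had one in shRRN3 alone. CDK9, its kinase, had none in either list. Of 6 SRP protein genes, 2 and 5 had one, with SRP54 at 82.7 and 187 and SRP72 at 77.4 and 139. SRP14 (270) and SRP19 (151) had one in shRRN3 alone. Of 10 genes for Pol III transcription factors, 2 and 6 had one. GTF3A (64.6) and GTF3C5 (51.01) were those in shLacZ, and the highest in shRRN3 were GTF3C3 (101), GTF3C6 (88.2) and GTF3C1 (73.5).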

How the data were processed

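For Pol II ChIP-seq in shLacZ and shRRN3 SK-OV-3 cells, 1 table of peaks per hairpin was used. The 2 input libraries were left out, having no table here. The authors called peaks in each library with MACS, as the peak names show, and deposited a score per peak, which was taken as 10 times −log10 of the p-value. The labels name the build hg38. The aligner, its settings, the MACS version, duplicates, threshold and use of input are not given in the sources used here. Peaks enter the list only past the caller's threshold, so an absent peak does not mean absent Pol II.

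Starts were converted to count from 1. Genes came from GENCODE release 44. A gene had a peak when at least 1 bp of the gene or 2 kb around it was overlapped, and partner and marker genes when a midpoint lay within 1 kb of the start. No test was run between hairpins, which had 1 library each. Read depth is unknown, and intervals are exact Clopper-Pearson. Gene names followed a written rule: all members, other small RNA genes with a peak, and the 3 highest start peaks per list in each partner group. Of the copies, the 3 with the highest peak per list were named, and of genes beside a member those starting within 2 kb. Outside this rule, some protein-coding genes were named to place a peak or a gene. PARP16, CYB5R3, ENSG00000289517 and RPS29 are among these. The members and lists were chosen with earlier results of these data known, and genes without a peak, motif letters, 50-base stretches and T runs were added in the same knowledge. Sequences were read from the GRCh38 genome. The counting code was checked on a simulated list, in which all 200 planted genes were recovered among 959. The peaks were planted close to the starts of genes that lie far apart. Recovery therefore shows that the code counts correctly, and crowded loci such as the U4 pair were not simulated. Alternatives were other windows, a stricter score, a shortened shRRN3 list, midpoints, removal of peaks at protein-coding starts and joined peaks. Tables were handled with pandas 2.3.3 and numpy 2.4.6 under Python 3.11.15. Intervals came from scipy 1.17.1, and plots were drawn with matplotlib 3.10.9.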

Additional observations from a re-analysis of the deposited data

How the results depend on the processing

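Over 103 values under alternatives, for 17 counts, 84 stayed within 1.5 times of the reported count and 19 moved beyond it. This tally holds values that could not move, such as shLacZ counts when the shRRN3 list alone was shortened. The 6 Pol II snRNA genes kept a peak in both lists under every window, the stricter score of 65.58, midpoints and the shortened shRRN3 list. None of these settings could change that, because each gene had a peak over it with its midpoint within 2 kb. Those peaks ranked 337 or better in their list and scored at least 158.9. Leaving out peaks within 1 kb of a protein-coding start took the peaks at members in shLacZ from 8 to 5, and RNU11 lost its peak in both lists and RNU12 in shLacZ. For the 3 Pol III genes, shLacZ stayed at 0 throughout, and the single shRRN3 gene became 0 with the gene span only and in the shRRN3 list shortened to 3920 peaks, and 2 with a window of 5 kb, which added RN7SL2. That window also raised the shRRN3 peaks at members from 8 to 13. The other Pol III genes in shRRN3 went from 6 to 3 with the gene span only and to 1 in the shortened list, and the partner genes from 30 to 14 in that list. Copies with a peak went from 10 in shLacZ to 2, 3, 5 and 18 with windows of 0, 0.5, 1 and 5 kb and to 5 with the stricter score, and from 33 in shRRN3 to 7, 14, 15, 75 and 21, and to 13 in the shortened list. Of all 62663 annotated genes, 4022 had a peak in shLacZ, which became 3259 with the gene span only and 4629 with the 5 kb window. With the stricter score this number was 2299. In shRRN3, 11105 of all genes had one, which became 9404 with the gene span only and 12554 with the 5 kb window. That number was 8480 with the stricter score and 4713 in the shortened list. By construction, smaller windows, the stricter score and the shortened list admit fewer bases or peaks, and the 5 kb window admits more. Joining peaks up to 10 bp apart was added after the data were seen and left 5 genes with a wider shRRN3 peak and 5 that reached further past the end. No paired analysis was possible because each hairpin had 1 library.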

Other observations

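Related snRNA families outside the lists above were counted by name after the results were known, in the gene or 2 kb around it. Of 27 annotated U1 variant genes (RNVU1), 6 had a peak in shLacZ and 10 in shRRN3, or 22.2% and 37.0%, and all 6 of shLacZ were among the 10. RNVU1-14, RNVU1-31, RNVU1-6, RNVU1-29, RNVU1-27 and RNVU1-30 were those found in both lists. Pseudogene copies had few. Of 1271 U6 copies, 10 had one in shLacZ and 29 in shRRN3 (0.787% and 2.28%). Of 112 U1 copies, the numbers were 0 and 1. Of 69 U2 copies other than RNU2-2P, they were 0 and 2, and of 53 Y RNA copies, 0 and 3. These values are descriptions of 1 library per hairpin, and near-identical U1 genes cannot be told apart without the treatment of reads that map to several places.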
